A study of Mus musculus with 4 samples.

Results

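The plasminogen activator system was examined in cultured mouse podocytes as 8 genes: the activators Plau and Plat, the receptor Plaur, the inhibitors Serpine2 and Serpinb2, and the related coagulation genes F3, Tfpi and Thbd. They were taken by gene symbol from the 54532 genes of the deposited count table, and all 8 were found. The cells were of the mouse podocyte line MPC5, which is conditionally immortalized. It grows in the presence of interferon-γ at a permissive temperature and differentiates at a higher temperature after interferon-γ is withdrawn, and both groups share this history. The IL-12 treatment group received IL-12 at 400 ng/ml and was taken at 6 h (2 libraries), and the control group was treated with saline (2 libraries). Whether replicate libraries stem from separate cultures is not given in the sources used here, so the p-values measure the spread between these libraries, which may be technical.

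Plasminogen activators are serine proteases that cut plasminogen into plasmin, a protease that dissolves fibrin and degrades extracellular matrix. The urokinase type (Plau) acts largely at the cell surface, bound to its receptor (Plaur), whereas the tissue type (Plat) is best known for acting on fibrin. Serpins trap the activators in covalent complexes, and receptors of the low-density lipoprotein receptor family carry such complexes into the cell. In the glomerulus, the urokinase receptor on podocytes is known for its link to integrin αvβ3 and foot process effacement. Tissue factor (F3) starts coagulation on cell surfaces, where tissue factor pathway inhibitor (Tfpi) and thrombomodulin (Thbd) oppose it.

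The libraries held between 18355379 and 20098012 counts, at which 3 counts are worth 0.149 to 0.163 CPM (counts scaled to the library total); this floor covers counting error only. Counts of replicates differed beyond sampling noise (chi-square per degree of freedom 2.20 for the control group and 2.51 for the IL-12 treatment group), and each library was counted as 1 sample. The levels in CPM that follow are also scaled between libraries by the TMM method. Of 12 podocyte markers, 7 were over 1 CPM on average, among them Synpo, Podxl and Actn4. The slit diaphragm gene Nphs1 had at most 1 count in a library, and Tcf21 and Ptpro had 0 in all. The summed podocyte markers were at 2850 to 2860 CPM in the controls and 2800 to 2820 CPM after IL-12. The 10 endothelial markers summed to 11.3 to 11.5 CPM and 9.44 to 9.90 CPM, with Emcn and Tie1 at 0 and Ehd3 holding most of the sum. The 7 mesangial or fibroblast markers, with Ren1 at 0, summed to 215 to 217 CPM in the controls and 238 to 246 CPM after IL-12. The 8 macrophage or leukocyte markers summed to 26.6 to 29.1 CPM and 16.1 to 20.3 CPM, mostly from Csf1r, with Adgre1 and Cd3e at 0. The 6 tubular markers summed to 634 to 660 CPM and 518 to 559 CPM, nearly all from Lrp2, with Slc34a1 and Umod at 0. The part of these shifts in the results below was not tested, and in such bulk RNA fewer cells of a type and less RNA per cell cannot be told apart.

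Both activators, the urokinase receptor and tissue factor rose under IL-12, whereas no inhibitor among the 8 genes passed the test. Of the 8 genes, 6 passed the filter on low counts, and 4 of these 6 (Plaur, Plat, F3 and Plau) were higher in the IL-12 treatment group at an adjusted p below 0.05 by edgeR's quasi-likelihood test, whose adjusted p-values are given throughout. Of all 14095 genes tested, 16.1% were higher and 14.4% were lower by the same rule, 30.5% together. Serpine2 and Tfpi did not pass the test, and Serpinb2 and Thbd were too low to be tested. The median log2 fold change of the 6 genes was 0.35, beside 0.00 over all genes tested. With the over 2-fold limit of the study's screening criteria added, 0 of the 6 genes were called, beside 1.61% of all genes tested. Both treated libraries lay above both controls for the 4 genes that rose, as for 31.7% of all genes tested, and below them for Tfpi. The groups did not overlap, in either direction, for 62.9% of all genes tested. With 2 libraries a group, the smallest two-sided p of an exact permutation test is 0.333, and the edgeR values therefore depend on its model of the spread across genes.

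**Figure D1:**
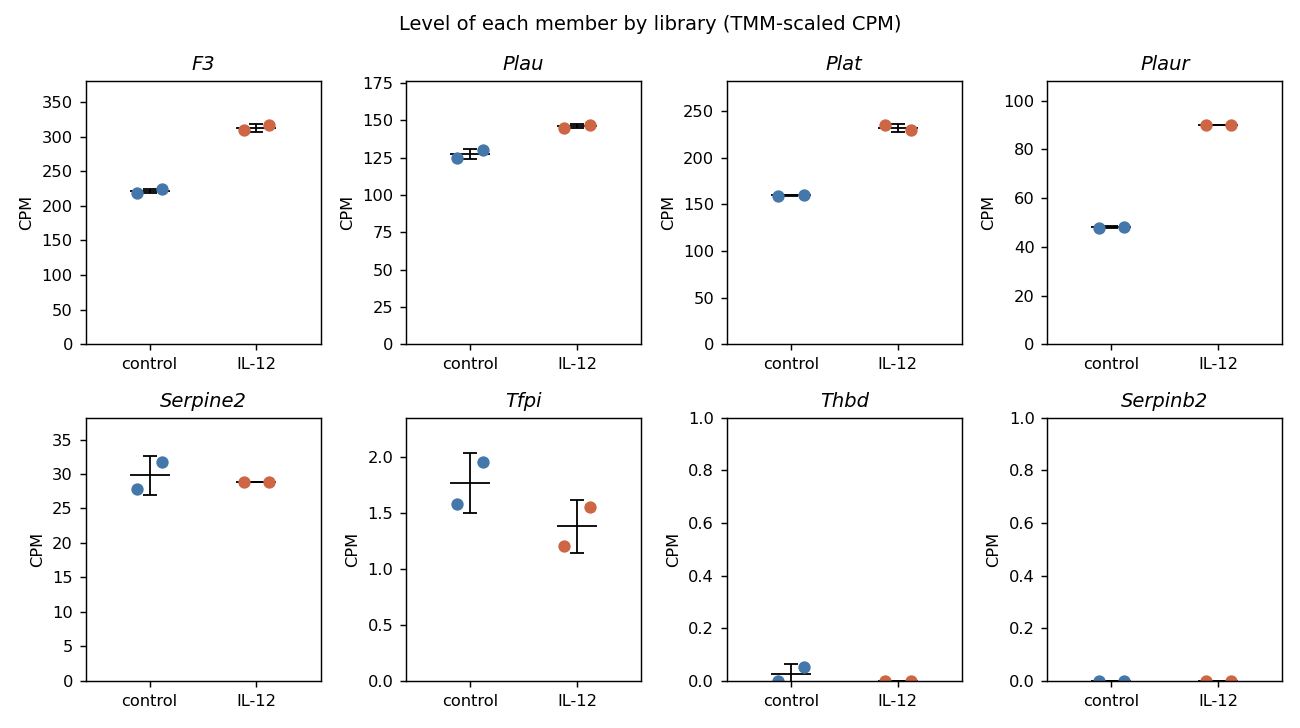
Level of each of the 8 genes in the 4 libraries, in CPM on linear axes that start at 0; points are libraries, horizontal bars are group means and error bars are the SD (n = 2). F3, Plau, Plat and Plaur lie higher in both treated libraries than in both controls, Serpine2 overlaps between the groups, Tfpi stays under 2 CPM, and Thbd and Serpinb2 are at or near 0.

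Plaur showed the largest change of the 8 genes. It encodes the urokinase receptor, a lipid-anchored surface protein that holds urokinase at the cell membrane. Plaur (ENSMUSG00000046223) lies on chromosome 7 of GRCm38 from 24462484 to 24475968 on the forward strand. Its level was 47.7 and 48.3 CPM in the controls and 90.1 CPM in each of the treated libraries. The groups were thus far apart, with replicates that were nearly equal. On the log2 scale the change was 0.91 (standard error, SE, 0.05, 95% interval 0.80 to 1.02), a 1.88-fold difference with an edgeR adjusted p of 1.68e-10. Plaur was at rank 56 by p-value among the 14095 genes tested, and 3.0% of them had a larger log2 fold change in size.

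Plat, the gene of tissue-type plasminogen activator, came next in size of change. Plat (ENSMUSG00000031538) lies on chromosome 8 from 22757727 to 22782844 on the forward strand. It had 159 and 160 CPM in the controls and 235 and 229 CPM after IL-12, so that the groups did not overlap. The log2 fold change was 0.54 (SE 0.04, 95% interval 0.46 to 0.62), a 1.45-fold difference with an edgeR adjusted p of 3.27e-09.

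Plau, the gene of urokinase, rose less. Plau (ENSMUSG00000021822) lies on chromosome 14 from 20836660 to 20843385 on the forward strand. Its level was 125 and 130 CPM in the controls and 145 and 147 CPM after IL-12, a small shift without overlap. The log2 fold change was 0.20 (SE 0.04, 95% interval 0.11 to 0.28), a 1.15-fold difference with an edgeR adjusted p of 0.00138. Tested against a 1.2-fold limit in place of no change, Plau no longer passed by edgeR, whereas Plaur, Plat and F3 did. The intervals of Plau, Plat and Plaur do not overlap one another, but the differences between their changes were not tested.

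Tissue factor had the highest level per gene length of the 8 genes and rose by about as much as Plat. F3 (ENSMUSG00000028128), which encodes the membrane receptor that binds factor VII and starts coagulation, lies on chromosome 3 from 121723537 to 121735048 on the forward strand. Its level was 219 and 224 CPM in the controls and 309 and 317 CPM after IL-12, well apart. The log2 fold change was 0.50 (SE 0.03, 95% interval 0.43 to 0.57), a 1.41-fold difference with an edgeR adjusted p of 2.87e-09. Its interval overlaps that of Plat.

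The promoters of Plaur and F3 are shown because both genes rose and RefSeq gives each a single start. The windows are the 250 bases before that start in GRCm38.p6, read 5′ to 3′ on the forward strand from chr7:24462233-24462482 and chr3:121723287-121723536. Capitals mark matches to TGANTCA, the motif of AP-1, a family of transcription factors made of Fos and Jun proteins.
Plaur: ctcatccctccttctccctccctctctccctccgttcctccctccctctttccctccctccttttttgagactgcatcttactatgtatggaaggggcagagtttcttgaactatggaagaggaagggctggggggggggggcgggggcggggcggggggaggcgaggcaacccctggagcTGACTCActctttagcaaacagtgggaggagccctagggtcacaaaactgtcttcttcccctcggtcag
F3: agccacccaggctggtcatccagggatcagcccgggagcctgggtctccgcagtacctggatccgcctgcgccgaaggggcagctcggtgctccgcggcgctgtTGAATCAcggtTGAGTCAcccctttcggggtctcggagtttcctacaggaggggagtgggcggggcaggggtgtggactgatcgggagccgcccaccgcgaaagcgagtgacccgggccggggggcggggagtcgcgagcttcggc
The Plaur window held 1 match, 69 to 63 bases before the start, and the F3 window held 2, at 146 to 140 and 135 to 129 bases before it. The first bases of the F3 window also belong to Gm43823, an uncharacterized gene on the opposite strand.

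Windows were given for 5 of the 8 genes (7 windows, with Serpinb2 and Tfpi having 2 each), and Plau and Plat were among those without one. The AP-1 motif was also in both windows of Serpinb2, which had no counts, and was not found in those of Serpine2 and Tfpi. Of all 32851 windows of this length, 6.75% held it on either strand. The other motifs searched on both strands were GGGCGG for SP1, GCGNGGGCG for EGR1, GGNNNTTCC for NF-κB, GGAATG for TEAD, CAGACA for SMAD and TGACGTCA for CREB, which were in 32.7%, 4.70%, 15.7%, 12.6%, 17.1% and 1.55% of all windows. SP1 matches numbered 3 in the Plaur window, 3 in the F3 window, 6 in the Serpine2 window and 1 in each Tfpi window. EGR1 had 1 match each in the Plaur and Serpine2 windows, overlapping SP1 matches. The NF-κB letters were found once, in the F3 window, and the TEAD, SMAD and CREB letters in none of the 7 windows. A match describes the letters only, and binding was not measured.

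Serpine2, the gene of protease nexin-1, which inhibits urokinase, tissue-type activator and thrombin, did not pass the test. Serpine2 (ENSMUSG00000026249) lies on chromosome 1 from 79794197 to 79861180 on the reverse strand. It had 27.8 and 31.8 CPM in the controls and 28.8 CPM in each of the treated libraries. The IL-12 libraries thus lay between the control libraries. The log2 fold change was -0.05 (SE 0.08, 95% interval -0.22 to 0.12, edgeR adjusted p = 0.712). Without control replicate 2 its sign turned, with a log2 fold change of 0.05.

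Tfpi, whose product blocks factor X activation by tissue factor and factor VII, was expressed at a low level. Tfpi (ENSMUSG00000027082) lies on chromosome 2 from 84432855 to 84476775 on the reverse strand. Its counts were 30 and 37 in the controls and 24 and 28 after IL-12, or 1.58 and 1.96 CPM against 1.21 and 1.55 CPM. The values nearly met, and the log2 fold change of -0.36 had a wide interval (SE 0.32, 95% interval -1.03 to 0.31, edgeR adjusted p = 0.437). The interval includes downward differences as large as the rises of Plat and F3, so a fall of that size is not excluded at this depth.

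Thbd and Serpinb2 were at the limit of detection. Thbd (ENSMUSG00000074743, chromosome 2, 148404466 to 148408188, reverse strand) encodes thrombomodulin, an anticoagulant receptor best known from endothelium. It had 1 count in control replicate 2 and 0 counts in the other libraries. Serpinb2 (ENSMUSG00000062345, chromosome 1, 107511423 to 107535478, forward strand) encodes plasminogen activator inhibitor type 2. It had 0 counts in all 4 libraries, which allows a level of up to 0.149 to 0.163 CPM. No fold change is given for either gene. The only gene of the table that overlaps one of the 8 is Serpinb10, on the same strand as Serpinb2, and it had 0 counts too.

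Per kilobase of gene length, the order of levels was F3, Plau, Plat, Plaur, Serpine2 and Tfpi in every library. In the control group the mean FPKM values (scaled by gene length and a size for each library, as deposited) were 87.8 ± 1.48 (SD, n = 2) for F3, 54.0 ± 1.39 for Plau, 25.6 ± 0.189 for Plat and 18.4 ± 0.200 for Plaur. The FPKM of Serpine2 was 3.60 ± 0.348 and that of Tfpi was 0.324 ± 0.0492 (SD, n = 2). After IL-12 the mean FPKM was 124 ± 2.22 for F3, 61.9 ± 0.453 for Plau, 37.2 ± 0.702 for Plat, 34.5 ± 0.0105 for Plaur, 3.49 ± 0.000585 for Serpine2 and 0.253 ± 0.0434 for Tfpi (SD, n = 2). No library of one gene reached into the range of its neighbour in this order within a group. Plat and Plaur came closest, with 36.7 FPKM as the lower value of Plat and 34.5 FPKM for Plaur after IL-12. The median gene tested was at 6.43 FPKM over the 4 libraries, and only 2.69% of the genes tested were above F3, whereas 63.8% were above Serpine2 and 94.5% above Tfpi.

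The proportions of these messages within a library also differed between the groups. The ratio of receptor to urokinase message (Plaur to Plau, in FPKM) was 0.344 and 0.337 in the controls and 0.560 and 0.555 after IL-12. The ratio of the activators (Plau to Plat) was 2.08 and 2.13 in the controls and 1.63 and 1.69 after IL-12, so that urokinase stayed the more abundant message by a smaller margin. Both ratios lay apart between the groups.

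The ratio of Plat to its inhibitor Serpine2 was 7.60 and 6.69 in the controls and 10.8 and 10.5 after IL-12. For Plau to Serpine2 it was 15.8 and 14.3 against 17.7 and 17.8. The ratio of F3 to Tfpi was 299 and 247 in the controls and 552 and 444 after IL-12, which rests on the low counts of Tfpi. These ratios are of messages per length and were not tested.

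**Figure D2:**
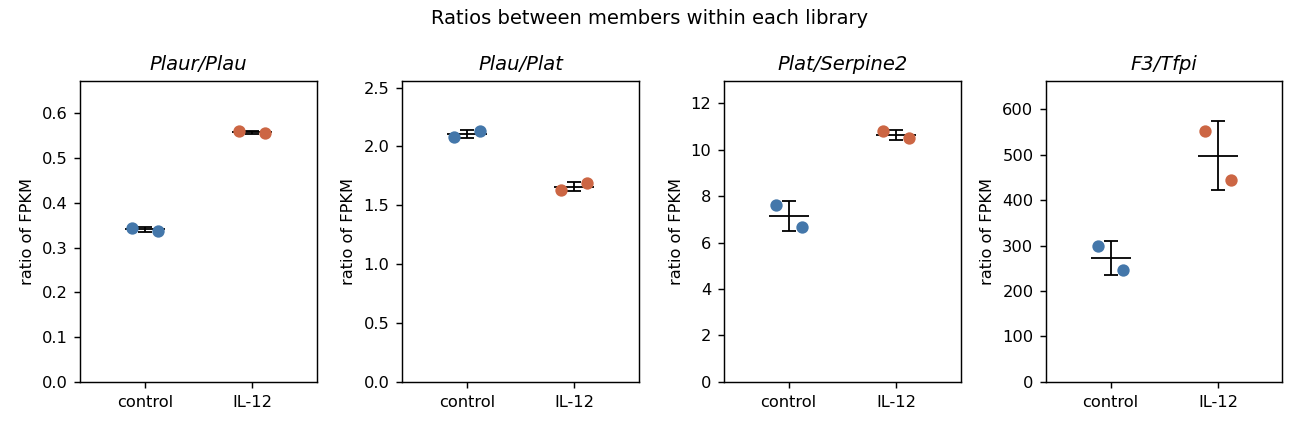
Ratios of FPKM between genes within each library, on linear axes that start at 0; points are libraries, horizontal bars are group means and error bars are the SD (n = 2). Plaur to Plau, Plat to Serpine2 and F3 to Tfpi are higher and Plau to Plat is lower in both treated libraries than in both controls.

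Other genes of plasminogen activation were then taken from a list of 34 genes that holds plasminogen, its surface receptors, further inhibitors, uptake receptors, activating proteases and integrins. Of these, 19 passed the filter, and 7 rose, 7 fell and 5 did not pass the test, beside 16.1% higher and 14.4% lower among all genes tested. The list's median log2 fold change was -0.01, beside 0.00 over all genes tested. Plasminogen itself (Plg) had 0 counts in all libraries, as did Vtn, the matrix protein vitronectin.

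Among plasminogen receptors, Anxa2 (annexin A2, which binds plasminogen and tissue-type activator at the cell surface) rose from 696 ± 13.6 CPM to 922 ± 16.5 CPM (SD, n = 2), or a log2 fold change of 0.41 (SE 0.03, edgeR adjusted p = 2.56e-09). Its partner S100a10 did not pass, with a log2 fold change of 0.07 (edgeR adjusted p = 0.146). Eno1, a glycolytic enzyme that also binds plasminogen, rose by 0.12 on the log2 scale. Plgrkt, a transmembrane plasminogen receptor, had a log2 fold change of -0.24 (edgeR adjusted p = 0.00917), which the DESeq2 Wald test did not call (adjusted p = 0.0802). Without IL-12 replicate 1 or IL-12 replicate 2 it did not pass either (edgeR adjusted p = 0.0574 and 0.0659). The call of Eno1 was lost with limma on log2(FPKM + 1) (adjusted p = 0.0626). Plasminogen receptors thus moved in both directions in the main test, but only the call of Anxa2 held in every setting.

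The integrin chains in this list, Itgb1, Itga3 and Itgav, which the urokinase receptor is known to pair with, all rose. By the same rule, 16.1% of all genes tested were higher. Itgb3, the other chain of integrin αvβ3, was not in the list. Itgb1 rose from 2190 ± 22.4 CPM to 2920 ± 16.7 CPM (SD, n = 2), or a log2 fold change of 0.41 (SE 0.02, edgeR adjusted p = 9.98e-11). Itga3 and Itgav had log2 fold changes of 0.31 and 0.25. Thbs1, the gene of thrombospondin 1, which binds plasminogen and cell surface receptors, had a log2 fold change of 0.14, and its call was lost with limma on log2(FPKM + 1) (adjusted p = 0.0721). Hgfac, the gene of a serine protease that activates hepatocyte growth factor, had the largest rise in this list, from 32.1 ± 3.65 CPM to 48.1 ± 1.73 CPM (SD, n = 2). Its log2 fold change was 0.58 (SE 0.07, edgeR adjusted p = 7.43e-06).

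Among the 7 genes that fell were the endocytic receptors Lrp1, Lrp2, Vldlr, Sorl1, Igf2r and Mrc2, which were grouped after their values were seen, so that no test of the group is given. Lrp1, which internalizes urokinase in complex with inhibitors and its receptor, fell from 771 ± 2.87 CPM to 665 ± 2.18 CPM (SD, n = 2), or a log2 fold change of -0.21 (SE 0.03, edgeR adjusted p = 5.76e-06). Vldlr fell by 0.45 on the log2 scale, Lrp2 by 0.27 and Igf2r by 0.16. Without control replicate 1, Igf2r did not pass (log2 fold change -0.12, edgeR adjusted p = 0.0567). Sorl1, a sorting receptor of the same family, fell from 22.1 ± 1.02 CPM to 12.1 ± 0.202 CPM (SD, n = 2), or a log2 fold change of -0.87 (SE 0.10, edgeR adjusted p = 1.80e-06). Mrc2, a collagen receptor that associates with the urokinase receptor, had 20 and 28 counts in the controls and 6 and 13 counts after IL-12. Its log2 fold change of -1.32 (SE 0.46, edgeR adjusted p = 0.0363) made it the 1 gene of the list past the 2-fold limit, and the call was lost without control replicate 2 (log2 fold change -1.06, edgeR adjusted p = 0.178) and without IL-12 replicate 1 (-0.82, edgeR adjusted p = 0.281).

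The remaining genes tested in this list had wide intervals or small differences. Of further serpins, Serpinb6a had a log2 fold change of 0.09 (edgeR adjusted p = 0.165) and Serpini1, with 8 to 23 counts in a library, one of -0.01. Ctsb, a lysosomal protease that can activate urokinase, had a log2 fold change of -0.04 (edgeR adjusted p = 0.380), and Hpn, the gene of the membrane protease hepsin, one of -0.16 with a standard error of 0.52.

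**Figure D3:**
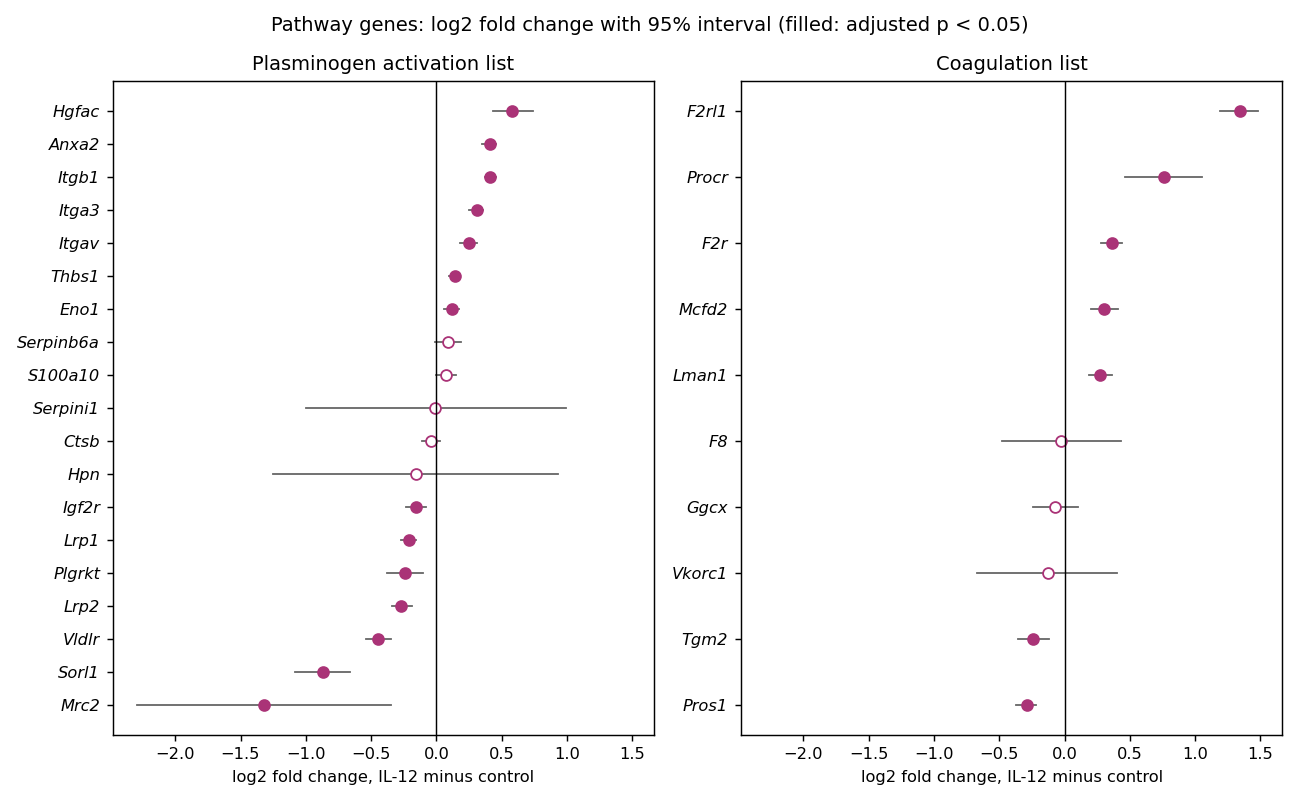
Log2 fold change (IL-12 treatment group minus control group) of the 19 plasminogen activation genes and 10 coagulation genes that passed the filter; horizontal lines are 95% intervals, and filled points have an adjusted p below 0.05 by edgeR. Integrin chains and Anxa2 lie on the right of 0, Lrp1, Lrp2, Vldlr, Sorl1, Igf2r and Mrc2 lie on the left, and F2rl1 is farthest to the right, at 1.34.

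A list of 32 coagulation genes was examined next to F3, Tfpi and Thbd. It holds clotting factors, protease-activated receptors, anticoagulant proteins and genes for factor processing. Only 10 of the 32 passed the filter, of which 5 rose, 2 fell and 3 did not pass the test, beside the same 16.1% and 14.4% of all genes tested, and the median log2 fold change was 0.12, beside 0.00 over all genes tested. The genes of factor VII, factor IX, factor X, factor XI and the fibrinogen chains (F7, F9, F10, F11, Fga, Fgb and Fgg) had 0 counts in all libraries.

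Of the 4 protease-activated receptors in the list, F2rl1 and F2r passed the filter and rose, whereas F2rl2 (at most 1 count in a library) and F2rl3 (at most 7 counts) were too low to be tested. F2rl1 encodes protease-activated receptor 2, which tissue factor with factor VII and factor X can cleave. It had 28.4 and 34.6 CPM in the controls and 79.0 and 80.0 CPM after IL-12. The log2 fold change was 1.34 (SE 0.07, 95% interval 1.19 to 1.48), a 2.52-fold difference with an edgeR adjusted p of 8.24e-11, which made it the 1 coagulation gene past the 2-fold limit. The thrombin receptor F2r rose from 205 ± 8.08 CPM to 262 ± 4.92 CPM (SD, n = 2), or a log2 fold change of 0.36 (SE 0.04, edgeR adjusted p = 6.50e-07).

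Genes of the protein C pathway, which limits clotting, moved in both directions. Procr, the gene of the endothelial protein C receptor, rose from 6.87 ± 1.06 CPM to 11.6 ± 0.659 CPM (SD, n = 2), or a log2 fold change of 0.76 (SE 0.14, edgeR adjusted p = 0.000352). Pros1, which encodes protein S, the cofactor of activated protein C and of Tfpi, fell from 232 ± 1.85 CPM to 190 ± 2.42 CPM (SD, n = 2), or a log2 fold change of -0.29 (SE 0.04, edgeR adjusted p = 5.10e-06). Lman1 and Mcfd2, whose products together carry factors V and VIII out of the endoplasmic reticulum, rose by 0.27 and 0.30 on the log2 scale. Tgm2, the gene of a transglutaminase that crosslinks matrix proteins, fell by 0.24 on the log2 scale (edgeR adjusted p = 0.00399), and without IL-12 replicate 1 it did not pass (edgeR adjusted p = 0.0706). Ggcx and Vkorc1, enzymes of the vitamin K cycle, and F8 did not pass, with log2 fold changes of -0.07, -0.13 and -0.03. Of the 21 genes of both lists that passed, 8 (Anxa2, Itgb1, Hgfac, Vldlr, Sorl1, F2rl1, F2r and Procr) also passed edgeR's test against a 1.2-fold limit.

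The genes whose pattern over the 4 libraries was closest to each of the genes that rose were found by the Euclidean distance of log2 CPM centred on each gene, among genes of at least 10 CPM. They were Plin2 and Cx3cl1 for Plaur (distances 0.0529 and 0.0658), Eif6 and Ppa1 for Plat (0.0145 and 0.0165), Fzd6 for Plau (0.00403), and Mtmr10 and Sgms2 for F3 (0.0127 and 0.0184). With 4 libraries in 2 groups, closeness mainly means a fold change of the same size, as for Plin2, which went from 105 to 193 CPM, and Cx3cl1, from 51.1 to 93.7 CPM.

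The changes of the members held under most processing settings. Plaur, Plat and F3 passed the test in all 13 alternatives computed for each, with log2 fold changes between 0.87 and 0.92 for Plaur, 0.50 and 0.56 for Plat, and 0.46 and 0.52 for F3. Plau passed in 12 of 13, with log2 fold changes between 0.15 and 0.22. Serpine2 did not pass in any of 13, with values between -0.14 and 0.05, and neither did Tfpi, whose values ranged from -0.54 to -0.08. A 1.5-fold limit in place of 2-fold called 1 of the 8 genes, which was Plaur.

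**Figure D4:**
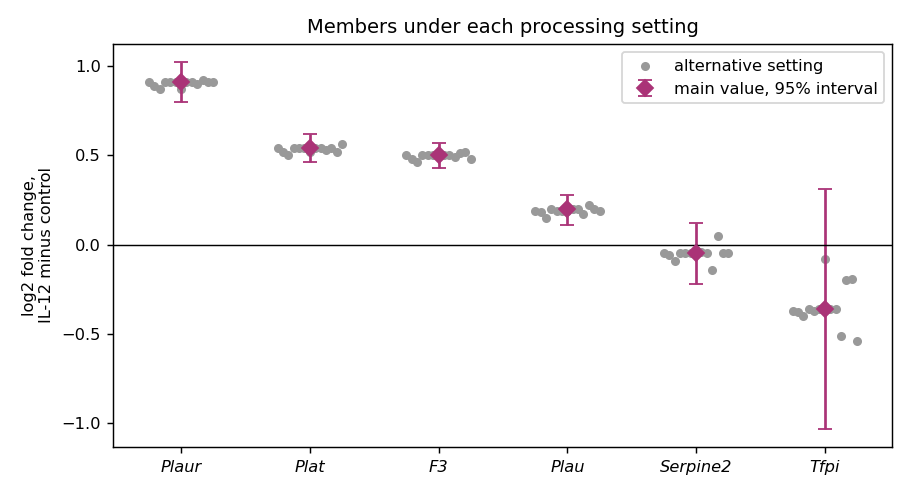
Log2 fold change (IL-12 treatment group minus control group) of the 6 genes that passed the filter; diamonds are the main values with 95% intervals, and grey points are the 13 alternative settings of each gene. Plaur, Plat, F3 and Plau stay above 0 in every setting, Serpine2 lies around 0, and Tfpi lies below 0 with a wide interval.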

How the data were processed

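RNA-sequencing of 2 control and 2 IL-12 libraries was used. The authors deposited raw counts per gene, and also FPKM values, which are the same counts divided by gene length and by 1 size per library. That size was 1.02 and 1.01 times the total count for the controls and 0.983 and 0.985 times for the IL-12 libraries, close to the TMM factors (1.02, 1.01, 0.985 and 0.987); how the authors set it is not given in the sources used here. The submitters' processing notes name HISAT2, StringTie and mm9 without their roles; how counting treated strand and shared reads is not given in the sources used here. Deposited coordinates equal GENCODE M21 (GRCm38) for 98.3% of 54495 shared genes and for all 8 members, so that build was used. No column of per-sample values was left out.

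The counts were tested with edgeR 4.0.16 (R 4.3.3): filterByExpr (minimum 10 counts, 15 in total) kept 14095 genes, TMM scaling, quasi-likelihood test by group, and Benjamini-Hochberg adjustment over all genes. A call needed an adjusted p below 0.05; the over 2-fold limit was applied separately. The SE was derived from each log2 fold change and its F statistic, and 95% intervals use the t distribution with edgeR's degrees of freedom. CPM are TMM-scaled.

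Alternatives were DESeq2 size factors, upper-quartile scaling or totals alone, no filter or at least 10 counts in every library, DESeq2 1.42.0, limma 3.58.1 on log2(FPKM + 1), a replicate block, fold limits and each library left out. The test was also run on counts simulated with the spread estimated here, which cannot show whether that spread is technical. Figures used Python 3.11.15 and matplotlib 3.10.9. Promoter windows came from RefSeq (GRCm38.p6).

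Members, lists and motifs were chosen with earlier results of these data known; a longer form of the NF-κB motif was searched first and matched no window. Named from the lists were genes past the test and, beyond those, genes with the 3 highest mean FPKM; Plg, Vtn, Serpini1, Hpn and the undetected clotting factors were named after their values were seen. For each member that rose, the 2 genes of nearest pattern were taken; 1 of these genes and 1 podocyte marker are not reported here.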

Additional observations from a re-analysis of the deposited data

How the results depend on the processing

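With the replicate number as a block, 4 of the members were higher and 0 lower, as without it, and the block changed no call among the members or the listed genes; over all genes tested 2272 were higher and 2069 lower. Same-numbered libraries did not deviate together (correlation -0.03 across genes), and the numbers are known only from the labels. Scaling by totals alone put 40.5% of the calls at any fold on the higher side, against 52.8% with TMM, while the median of all genes moved to -0.043 on the log2 scale; no call of a member or listed gene changed with this scaling.

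Leaving out each library in turn gave Serpine2 log2 fold changes from -0.14 to 0.05, the latter reversed and without control replicate 2. A 1.5-fold limit called 1 member, 2 lower genes of the plasminogen activation list, 2 higher genes of the coagulation list, and 328 higher and 365 lower genes in all. The test against 1.2-fold gave 3 higher and 2 lower genes in the plasminogen activation list, 3 and 0 in the coagulation list, and 540 and 428 in all, with 56 lower genes past 2-fold. Mrc2 was the plasminogen activation gene past 2-fold; the list gave 0 such genes with no filter, with at least 10 counts in every library (where it was not tested), with the DESeq2 Wald test (which gave Mrc2 no adjusted p), with limma on log2(FPKM + 1), with the test against 1.2-fold, and 0 to 1 when a library was left out. Leaving out each library in turn gave 5 to 6 lower plasminogen activation genes, 1 to 2 lower coagulation genes, and over all genes 1523 to 1998 higher and 1273 (without IL-12 replicate 1) to 1769 lower, with 90 to 142 and 79 to 140 past 2-fold.

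Over all genes the DESeq2 Wald test called 1481 higher and 1204 lower, with 67 and 40 past 2-fold, and limma on log2(FPKM + 1) called 1280 lower, with 30 and 8 past 2-fold; the causes were not tested. Of 21 listed genes past the test, 13 lost the call in the test against 1.2-fold, and at most 3 in any other setting. Depth limits Tfpi, Thbd, Serpinb2 and Mrc2. A library left out leaves its group with 1 sample, which is assumed to vary like the other group.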
